A study of Homo sapiens with 12 samples.

Results

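FOSB, JUNB, NR4A1, ZFP36, DUSP1, IER2 and CCN1 are immediate early genes, described here in U937 cells with and without the transcription factor EVI1 and with and without all-trans retinoic acid (ATRA). They were chosen by name. Each gene was read by the probe sets annotated to its symbol alone, and where there were several, the brightest on average over the 12 arrays gave its level. The 7 genes have 12 such probe sets and are 7 of the 19775 genes named on the array. All 7 reached the limit for testing, a log2 signal of at least 5 on at least 3 arrays, as did 14080 genes in all.

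U937 is a human monocytic leukaemia cell line. It had been transduced with a vector for the expression of EVI1, a zinc finger protein encoded at the MECOM locus and known as an oncogene in myeloid leukaemia, or with the same vector left empty. Growing cells of each kind received 1 µM ATRA, a vitamin A derivative that drives myeloid differentiation, or the solvent DMSO, for 24 h. The 12 arrays form 4 groups of 3 biological replicates: vector cells with DMSO, vector cells with ATRA, EVI1 cells with DMSO and EVI1 cells with ATRA. Every group thus comes from the same leukaemia line, but vector cells and EVI1 cells are different transduced populations. Whether each was a clone or a pool is not given in the sources used here. Differences between these populations other than EVI1 were not tested.

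Immediate early genes are switched on within minutes of a stimulus by transcription factors that are already present, without new protein synthesis. Many of their transcripts decay fast, so that levels fall again soon after the signal ends. Their products then shape the later response: FOS and JUN family proteins pair to form the transcription factor AP-1, NR4A1 is an orphan nuclear receptor, DUSP1 dephosphorylates and so inactivates MAP kinases, ZFP36 (tristetraprolin) binds AU-rich elements and speeds the decay of cytokine transcripts, and CCN1 is a secreted matrix protein that binds integrins. In monocytic cells this class of genes responds to growth factors, phorbol ester and bacterial products. A 24 h treatment is late for such a response, and the arrays hold no earlier time.

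The promoters of these genes carry binding sites close to the start of transcription, so the 150 bases before the start are shown for the 5 genes in which the letters TGACG or a TATA box were found. They were taken from RefSeq in the build GRCh38.p14, 5′ to 3′ on the strand of the gene: FOSB at chr19:45467846-45467995, JUNB at chr19:12791336-12791485, ZFP36 at chr19:39406697-39406846 and IER2 at chr19:13150261-13150410 on the plus strand, and DUSP1 at chr5:172771196-172771345 on the minus strand. Capitals mark the letters TGACG or their reverse complement CGTCA, which are the core of the cAMP response element, and the TATA box letters TATAAA or TATAANT.
FOSB: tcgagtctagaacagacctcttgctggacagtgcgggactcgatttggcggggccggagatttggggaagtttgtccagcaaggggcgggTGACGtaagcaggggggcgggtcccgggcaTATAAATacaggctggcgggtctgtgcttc
JUNB: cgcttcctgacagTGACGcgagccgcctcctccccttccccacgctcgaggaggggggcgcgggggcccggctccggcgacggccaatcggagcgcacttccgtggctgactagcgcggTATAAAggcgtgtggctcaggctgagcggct
DUSP1: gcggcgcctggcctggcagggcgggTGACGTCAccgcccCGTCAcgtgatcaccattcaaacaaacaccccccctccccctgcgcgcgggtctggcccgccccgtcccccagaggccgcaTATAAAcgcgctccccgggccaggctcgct
ZFP36: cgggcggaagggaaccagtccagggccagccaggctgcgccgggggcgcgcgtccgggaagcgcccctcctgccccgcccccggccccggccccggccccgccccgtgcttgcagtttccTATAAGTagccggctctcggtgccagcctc
IER2: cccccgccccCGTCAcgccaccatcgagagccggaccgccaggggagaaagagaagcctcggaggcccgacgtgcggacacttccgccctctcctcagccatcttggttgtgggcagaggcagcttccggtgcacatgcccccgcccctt

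The table of promoters held 6 of the 7 genes, with 7 promoters, since NR4A1 has a pair of starts, and 4 of the genes lie on chromosome 19. Motifs were searched on both strands in the 250 bases before each start, and shares are of all 35116 promoters of that length. The letters TGACG were found in FOSB, JUNB, DUSP1 and IER2, against 21.2% of all promoters. DUSP1 also held the full palindrome TGACGTCA, from 125 to 118 bases before its start, which 1.65% of all promoters hold and which contains TGACG on both strands. TATAAA began 30 bases before the start in FOSB and DUSP1 and 31 bases before it in JUNB, against 10.7% of promoters. ZFP36 had TATAAGT at 30 bases, a match to TATAANT, which was searched after this sequence had been read, overlaps TATAAA in FOSB and is held by 7.31% of promoters. The GC box letters GGGCGG were in 5 of the 7 promoters (FOSB, DUSP1, ZFP36, IER2 and 1 of NR4A1), against 42.6%, and CCAAT was in that of JUNB, against 32%. No match was found in any of the 7 for the CArG box of serum response factor, the AP-1 site TGANTCA, the EGR site GCGGGGGCG, the nuclear receptor letters AGGTCA, TTCNNNGAA or GATAAG, which 1.16%, 6.57%, 4.72%, 12.1%, 6.57% and 5.65% of promoters hold. A match says that the letters occur in this window, not that a factor binds there.

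All levels are log2 signals of the deposited table, in which array medians lay between 5.29 and 5.35. The GAPDH probe sets for the 3′ and 5′ ends differed by 0.15 to 0.32 and those of ACTB by 0.34 to 0.70, a measure of RNA quality. Of the monocytic markers, all 7 with a probe set of their own passed the limit for testing, from MPO with a mean of 5.29 to lysozyme (LYZ) with 13.1. Their summed log2 level was 62.74 to 63.67 in EVI1 cells with ATRA. That lay above EVI1 cells (61.27 to 62.65) and vector cells (61.50 to 62.50) with DMSO, and overlapped vector cells with ATRA (62.09 to 63.28). Among them CSF1R was higher with ATRA in EVI1 cells (0.62, adjusted p = 0.0324 in limma). Without the third array of EVI1 cells with ATRA it did not pass (0.49, adjusted p = 0.144). The summed log2 levels of T and NK, B, erythroid, megakaryocyte, epithelial, and fibroblast and endothelial markers overlapped between all groups, barely so for the fibroblast and endothelial list between EVI1 cells with DMSO (up to 38.09) and with ATRA (from 38.08). In that list PECAM1, which monocytes also express, was higher with ATRA in EVI1 cells (1.10, adjusted p = 0.00536) and in EVI1 cells under ATRA (1.00, adjusted p = 0.0167); its part in the results was not tested. EPCAM (mean 3.04) and CDH5 (3.32), the lowest of the epithelial list and of the fibroblast and endothelial list, lay under the limit. The highest marker of each of these lists had a mean above that of MPO. These were NKG7 (7.6), PAX5 (6.88), HBB (6.09), GP9 (6.89), KRT8 and PECAM1 (11.2). Markers of other cell types were thus not all undetected, and the source of their signal was not tested. The 5 MECOM probe sets read between 2.61 and 3.60 on every array, so they do not check which cells carry the EVI1 vector.

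ZFP36 was the only one of the 7 genes that passed in a simple comparison of groups. It had its highest levels in EVI1 cells treated with ATRA and its lowest in untreated vector cells. Its signal on the 3 arrays of vector cells with DMSO was 7.50, 7.31 and 7.30, in the order of the replicate numbers, and with ATRA it was 7.68, 7.56 and 7.58. In EVI1 cells it was 7.68, 7.57 and 8.15 with DMSO and 8.54, 8.36 and 9.26 with ATRA. The 3 arrays of EVI1 cells with ATRA lay above all 9 others, an arrangement that 5.7% of the tested genes showed. ATRA in EVI1 cells raised ZFP36 by 0.92 ± 0.21 (SE; log2), 1.89-fold, with an adjusted p of 0.0136. Under ATRA, EVI1 cells were 1.11 ± 0.21 above vector cells, 2.16-fold, with an adjusted p of 0.0119. In bulk RNA, a different share of expressing cells and a different amount per cell cannot be told apart. Without ATRA the EVI1 cells were 0.43 ± 0.21 above vector cells, with no overlap between their arrays, and this did not pass (adjusted p = 0.559). In vector cells ATRA made a difference of 0.24 ± 0.21, also without overlap (adjusted p = 0.647). Averaged over both agents the EVI1 difference was 0.77 ± 0.15 (adjusted p = 0.00723), and averaged over both cell types the ATRA difference was 0.58 ± 0.15 (adjusted p = 0.0154).

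JUNB, an AP-1 subunit that restrains proliferation of myeloid cells, was likewise highest in EVI1 cells with ATRA, and was lowest in vector cells with ATRA. Its signal was 7.63, 7.20 and 7.41 in vector cells with DMSO, and 7.13, 7.13 and 7.32 in those with ATRA. EVI1 cells had 7.58, 7.20 and 7.78 with DMSO, and 7.63, 7.76 and 8.35 with ATRA. The arrays of EVI1 and vector cells under ATRA did not overlap, while those under DMSO did. Under ATRA the difference was 0.72 ± 0.20 (adjusted p = 0.0557), which missed the threshold, and it passed once the replicate number was a block (adjusted p = 0.00645). Averaged over both agents, the EVI1 difference of 0.41 ± 0.14 likewise passed only with the block (adjusted p = 0.0890 without it and 0.0141 with it). ATRA itself gave -0.22 ± 0.20 in vector cells and 0.39 ± 0.20 in EVI1 cells, neither past the threshold (adjusted p = 0.652 and 0.215).

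IER2, a nuclear protein of the early growth response, differed by less, on a scale where the arrays of vector cells hardly varied. Vector cells read 10.77, 10.75 and 10.74 with DMSO, and 10.72, 10.69 and 10.64 with ATRA. EVI1 cells read 10.85, 10.90 and 11.11 with DMSO, and 10.99, 10.91 and 11.36 with ATRA. All 6 arrays of EVI1 cells were above all 6 of vector cells, which 1.88% of the tested genes showed. Averaged over both agents, IER2 was 0.30 ± 0.09 higher in EVI1 cells and passed narrowly (adjusted p = 0.0479); leaving out any of 9 of the 12 arrays ended that call. Under ATRA alone the difference of 0.40 ± 0.12 passed only with the replicate block (adjusted p = 0.0783 without it and 0.0167 with it). Under DMSO it was 0.20 ± 0.12 (adjusted p = 0.709), and ATRA gave -0.07 ± 0.12 in vector cells and 0.13 ± 0.12 in EVI1 cells (adjusted p = 0.852 and 0.549).

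DUSP1 was lower with ATRA on 5 of the 6 arrays, by the probe set with the highest mean. It read 6.94, 6.52 and 6.87 in vector cells with DMSO and 6.05, 6.07 and 6.05 with ATRA. EVI1 cells read 6.96, 7.02 and 6.98 with DMSO, and 6.24, 6.13 and 7.29 with ATRA. The 2 lower arrays of EVI1 cells with ATRA lay close to the vector cells with ATRA, and the third was the highest of all 12. Averaged over both cell types ATRA lowered DUSP1, with a difference of -0.58 ± 0.17 (adjusted p = 0.0299), and leaving out any of 9 of the 12 arrays ended the call. In vector cells the difference was -0.72 ± 0.24, with no overlap (adjusted p = 0.136, and 0.0392 with the replicate block). For EVI1 cells it was -0.43 ± 0.24 (adjusted p = 0.268). The other 2 DUSP1 probe sets did not share the fall: one lay between 4.90 and 5.24 with an averaged ATRA difference of 0.00 ± 0.08, and the other between 5.94 and 6.75 with -0.02 ± 0.14. With the mean of all 3 probe sets the averaged difference was -0.20 and did not pass (adjusted p = 0.147).

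FOSB, the FOS family partner of the JUN proteins, was near the limit for testing and reached a signal of 5 on 10 of the 12 arrays. It read 5.12, 5.12 and 5.35 in vector cells with DMSO, 4.77, 5.19 and 5.02 with ATRA, 4.74, 5.24 and 5.12 in EVI1 cells with DMSO, and 5.26, 5.01 and 5.57 with ATRA. All 4 groups overlapped. No comparison passed for FOSB, and the largest of its simple differences was 0.29 ± 0.17, for EVI1 under ATRA (adjusted p = 0.387), with a 95% confidence interval from -0.09 to 0.66.

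NR4A1 stayed between 6.40 and 6.97 on its main probe set, with group means of 6.78 ± 0.20 (SD, n = 3) in vector cells with DMSO, 6.61 ± 0.18 with ATRA, 6.76 ± 0.05 in EVI1 cells with DMSO and 6.69 ± 0.09 with ATRA. No comparison passed, and its other 2 probe sets had group means of 6.68 to 6.74 and of 6.34 to 6.46. CCN1 had a signal of 4.45 to 5.08, just under the limit for testing on most arrays. It reached 5 on 3 arrays, all of replicate number 1, with 5.08 in vector cells with DMSO, 5.02 in vector cells with ATRA and 5.01 in EVI1 cells with ATRA. Its second probe set read 3.75 to 4.26, near the arrays' lower quartiles of 3.83 to 3.91. No comparison between groups passed for CCN1.

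**Figure D1:**
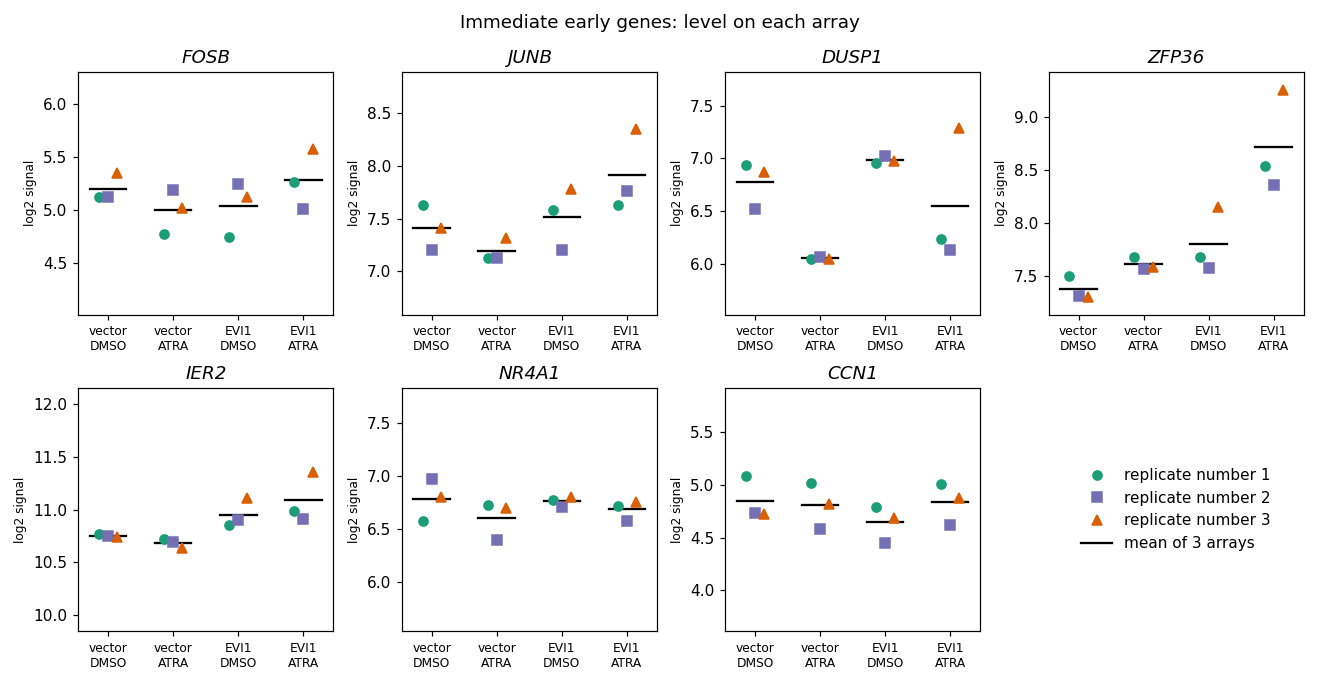
Log2 signal of each of the 7 genes on each array, by group, with the colour and shape giving the replicate number and the line the mean of 3 arrays. ZFP36 is highest on the 3 arrays of EVI1 cells with ATRA, from 8.36 to 9.26, and DUSP1 is lowest with ATRA except on the third EVI1 array, at 7.29.

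Over the 7 genes, the comparisons gave few calls, at the threshold of an adjusted p under 0.05 (limma, Benjamini-Hochberg over all 14080 genes). ATRA in vector cells called 0 of 7, against 3.52% of all genes; DUSP1 alone had an unadjusted p under 0.05 there, as did 17.4% of all genes, and with the replicate block DUSP1 was called, against 20% of all genes. ATRA in EVI1 cells called 1, ZFP36, against 15.1%. EVI1 under DMSO called 0 of 7, against 1.21%, and 0 of 7 had an unadjusted p under 0.05 in limma, against 1379 genes or 9.79%. EVI1 under ATRA called 1, ZFP36, against 5.61%, and 3 with the replicate block, ZFP36, JUNB and IER2, against 25.3% of all genes. The averaged ATRA effect called ZFP36 upward and DUSP1 downward, 2 of 7 against 22.4%, and the averaged EVI1 effect called ZFP36 and IER2, 2 of 7 against 9.69%, and with the replicate block also JUNB, 3 of 7 against 28.6%.

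For EVI1 under ATRA all 7 differences were above 0, with a median of 0.40 against -0.01 over all tested genes. The smallest were those of NR4A1 (0.08) and CCN1 (0.03). Without the second array of vector cells with ATRA they were below 0 (-0.028 and -0.087). For EVI1 under DMSO 4 of 7 were above 0, with a median of 0.11 against 0.02. ATRA gave differences below 0 for 6 of 7 genes in vector cells, with a median of -0.17 against 0.00, and above 0 for 5 of 7 in EVI1 cells, with a median of 0.19 against -0.02. Groups without overlap and EVI1 higher under ATRA were found for JUNB, DUSP1, ZFP36 and IER2, 4 of 7 genes against 12% of all genes, and under DMSO for DUSP1, ZFP36 and IER2, 3 of 7 against 8.23%. DUSP1 is counted by its main probe set alone. Its other 2 probe sets had EVI1 differences of -0.15 and -0.06 under ATRA and of -0.02 and -0.11 under DMSO. ATRA against DMSO gave no overlap for ZFP36 upward in EVI1 cells, 1 of 7 against 13%, and in vector cells for ZFP36 upward, 1 of 7 against 12%, and for DUSP1 and IER2 downward, 2 of 7 against 11.4%. These comparisons share their arrays, so their values are not independent of each other.

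The interaction, the ATRA difference in EVI1 cells minus that in vector cells, was above 0 for all 7 genes, with a median of 0.29 against -0.02 over all tested genes. It was above 0 at each of the 3 replicate numbers for 4 of them, JUNB, ZFP36, IER2 and CCN1, a pattern of 16.9% of all tested genes. For JUNB and IER2, 2 of 7 genes against 1.75%, the ATRA difference had opposite signs in vector and EVI1 cells at all 3 numbers. It was 0.68 ± 0.30 for ZFP36, 0.61 ± 0.28 for JUNB and 0.45 ± 0.24 for FOSB. For ZFP36 and JUNB the unadjusted p was 0.0404 and 0.0485. After adjustment limma called 0% of all tested genes for the interaction, where 362 genes, or 2.57%, had an unadjusted p under 0.05, and the adjusted p was 0.998 for both ZFP36 and JUNB. Leaving out the third array of EVI1 cells with ATRA gave an interaction of 0.41 for ZFP36, 0.40 for JUNB, 0.067 for IER2 and -0.082 for DUSP1, and without the second array of vector cells with ATRA it was -0.0083 for NR4A1. In those fits the interaction was therefore not above 0 for all 7 genes.

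**Figure D2:**
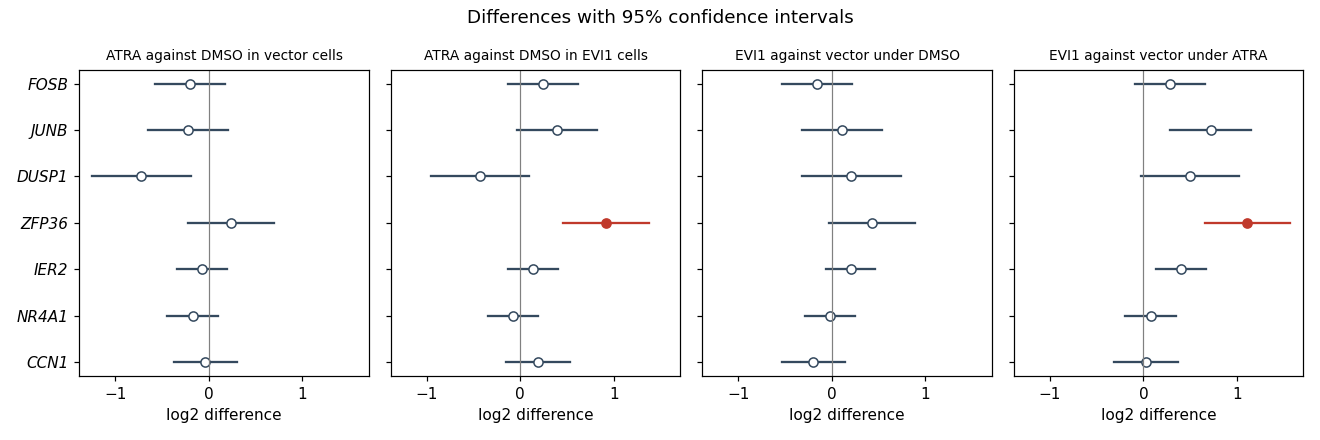
Log2 differences of the 7 genes with 95% confidence intervals in the 4 simple comparisons; filled red points passed the test. Only ZFP36 passed, with 0.92 for ATRA in EVI1 cells and 1.11 for EVI1 under ATRA.

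The third array of EVI1 cells with ATRA bore on many of these values. It was the highest of all 12 arrays for FOSB, JUNB, DUSP1, ZFP36 and IER2, 5 of the 7 genes, against 16.1% of all tested genes. It was also the highest for 4 of 10 AP-1 partners (FOS, FOSL2, JUN and ATF3) and for 6 of 13 tested close relatives of the 7 genes. Without it, ZFP36 kept both calls, with 0.65 for ATRA in EVI1 cells (adjusted p = 0.0402) and 0.84 for EVI1 under ATRA (adjusted p = 0.0307). The EVI1 difference under ATRA went from 0.72 to 0.50 for JUNB, from 0.40 to 0.27 for IER2 and from 0.50 to 0.13 for DUSP1, none of them called. Without it DUSP1 was lower with ATRA in both kinds of cell, by -0.80 in EVI1 cells (adjusted p = 0.00801) and -0.72 in vector cells (adjusted p = 0.00949), with -0.76 averaged over both (adjusted p = 0.000384). The DUSP1 values here are those of its main probe set alone. Its other 2 probe sets were highest in vector cells, at 5.24 with ATRA (number 3) and 6.75 with DMSO (number 2). Over all 12 arrays their ATRA differences were 0.06 and -0.04 in vector cells and -0.06 and 0.01 in EVI1 cells. What set this array apart was not tested.

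By replicate number, FOSB, JUNB, DUSP1, ZFP36, IER2 and NR4A1 did not pass (limma's F test), against 46.9% of all tested genes that did. CCN1 met the limit for testing only through the arrays of number 1, where it is highest, so its values by number are given with no test. Its mean was 4.98 over the 4 arrays of number 1, 4.60 over number 2 and 4.78 over number 3. The difference of number 2 from number 1 was -0.38 ± 0.06, and that of number 3 from number 1 was -0.20 ± 0.06. The other 6 genes had their highest mean at number 3, among them JUNB with 7.72, DUSP1 with 6.80, ZFP36 with 8.07 and IER2 with 10.96. This order did not hold in every group. In vector cells number 1 was highest for ZFP36 (7.50 with DMSO, 7.68 with ATRA) and IER2 (10.77 and 10.72). JUNB in vector cells was highest at number 1 with DMSO (7.63) and at number 3 with ATRA (7.32). In EVI1 cells number 3 was highest for JUNB, ZFP36 and IER2 with both agents. DUSP1 was highest at number 3 only in EVI1 cells with ATRA (7.29).

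Deviations of the arrays from their group means ran together for part of the set. Over the 12 arrays, Pearson's r of these deviations was 0.966 between ZFP36 and IER2, 0.851 between JUNB and ZFP36, 0.811 between DUSP1 and IER2, 0.795 between DUSP1 and ZFP36, and 0.748 between JUNB and DUSP1. The points share arrays and replicate numbers. Without the third array of EVI1 cells with ATRA, over 11 arrays, r stayed at 0.901 for ZFP36 and IER2 and at 0.680 for JUNB and ZFP36, and was 0.0969 for DUSP1 and IER2, 0.199 for DUSP1 and ZFP36, and 0.373 for JUNB and DUSP1. NR4A1 deviated from its group means in no common direction with the rest, with r from -0.0958 to 0.232 over 12 arrays; over the 11 arrays its r with DUSP1 was -0.598.

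**Figure D3:**
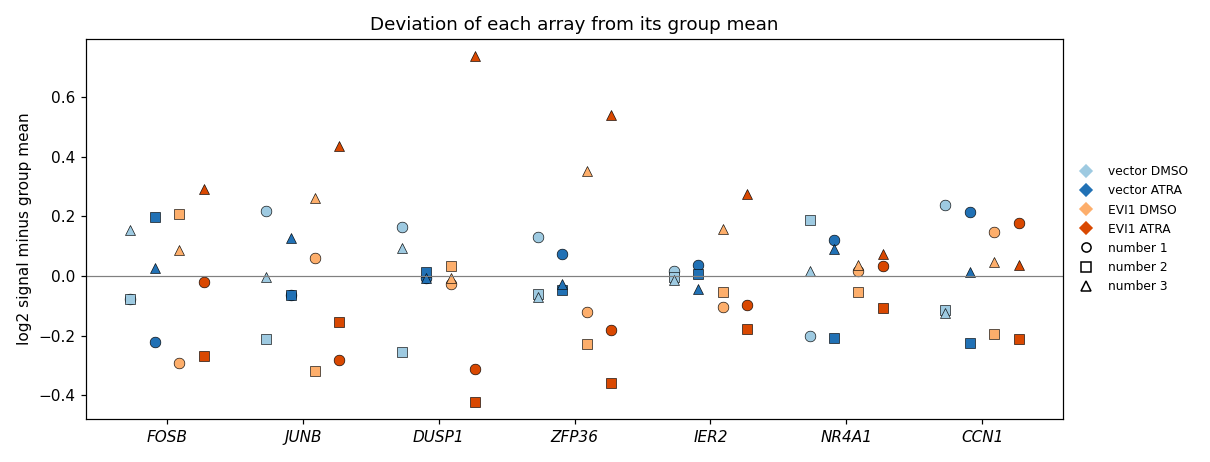
Deviation of each array from the mean of its group, in log2 signal, for the 7 genes; colours give the group and shapes the replicate number. The third array of EVI1 cells with ATRA, the dark red triangle, is the highest point for FOSB, JUNB, DUSP1, ZFP36 and IER2.

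The genes whose levels over the 12 arrays were most like those of ZFP36 were TNFAIP2 (r = 0.984), KLF13 (0.982) and EMC3 (0.977), chosen as the highest of all tested genes. For JUNB they were LIMK1 (0.941), NOL4L (0.935) and LOC101929305 (0.917), and for IER2 they were GCH1 (0.946), EMP1 (0.939) and PLAUR (0.928), the urokinase receptor. For DUSP1 they were PLAGL2 (0.925), ZNF143 (0.904) and RTN4 (0.902). For the genes that passed in no comparison between groups, the nearest were PGM5-AS1 (0.838) for FOSB, SEMA7A (0.785) for NR4A1 and ARHGDIB (0.933) for CCN1. These are correlations over the same 12 arrays, whose levels share the group structure, and are given as a description.

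The other AP-1 proteins were compared from a list of 10, all tested. In vector cells ATRA raised BATF2, with a difference of 2.03, and lowered JUN (-1.64) and JDP2 (-0.65). So 1 gene rose and 2 fell, where 3.52% of all genes were called. Under the replicate block BATF (-0.29, adjusted p = 0.0328) and BATF3 (-0.63, adjusted p = 0.000799) also fell, so that 1 rose and 4 fell, where 20% of all genes were called. In EVI1 cells ATRA raised BATF2 (2.19) and JUND (0.71) and lowered BATF3 (-0.75), JDP2 (-0.54) and FOSL1 (-0.45), where 15.1% of all genes were called. Under ATRA, EVI1 cells had more JUND (0.82 ± 0.12, adjusted p = 0.00415), the only one of the 10 that passed, against 5.61% of all genes. Under DMSO none passed, against 1.21%. JUND read 10.19, 10.07 and 10.17 in vector cells with DMSO and 10.59, 10.39 and 10.24 with ATRA; in EVI1 cells it read 10.41, 10.54 and 10.60 with DMSO and 11.03, 11.41 and 11.25 with ATRA. The JUND arrays of number 3 did not stand above the others, whereas JUN in EVI1 cells with ATRA read 8.76, 8.91 and 10.46 and FOS read 5.30, 6.23 and 7.49. JUN and FOS did not pass for EVI1 under ATRA, at 1.13 ± 0.34 (adjusted p = 0.0801) and 1.11 ± 0.41 (adjusted p = 0.141). With the replicate block they passed (adjusted p = 0.0311 and 0.0347), and 4 of the 10 were higher and 1 lower for EVI1 under ATRA, against 25.3% of all genes. Without the third array of EVI1 cells with ATRA, JUND kept both calls (0.70 and 0.81), JUN was lower with ATRA in EVI1 cells as well (-0.66, adjusted p = 0.0376), and FOSL1 (-0.48), BATF3 (-0.64) and JDP2 (-0.49) were no longer called there, with differences close to those of all 12 arrays.

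Close relatives of the 7 genes, the DUSP, ZFP36, IER, NR4A and CCN families, were a list of 17, of which 13 passed the limit for testing. In vector cells ATRA raised none and lowered CCN3 (-1.93), where 3.52% of all genes were called. With the replicate block DUSP6 (1.20, adjusted p = 0.000174) and IER3 (1.30, adjusted p = 0.0469) rose. DUSP2 (-0.68) and DUSP5 (-0.36) then also fell, against 20% of all genes. In EVI1 cells ATRA raised IER3 (2.43), DUSP6 (1.22) and IER5L (0.81) and lowered CCN3 (-2.07), where 15.1% of all genes were called. Under ATRA, EVI1 cells had more IER3 (2.49, adjusted p = 0.0382) and IER5L (1.07, adjusted p = 0.00918), against 5.61% of all genes. Under DMSO no relative passed, against 1.21%. With the block 5 rose and 4 fell with ATRA in EVI1 cells, against 35.7% of all genes. DUSP6, a cytoplasmic phosphatase of ERK, a MAP kinase, thus had about the same ATRA difference in vector and EVI1 cells. DUSP6 was higher in EVI1 than in vector cells, by 0.74 under DMSO and 0.76 under ATRA. These differences did not pass without the block (adjusted p = 0.510 and 0.223) and passed with it (0.00230 and 0.00104). Under the same block 4 relatives were higher for EVI1 under ATRA, against 25.3% of all genes, and 2 under DMSO, against 7.19%. Without the third array of EVI1 cells with ATRA, the calls for IER3 (1.81 and 1.86, adjusted p = 0.0971 and 0.159), for DUSP6 (0.99, adjusted p = 0.142) and for IER5L with ATRA (0.61, adjusted p = 0.0675) were lost, DUSP2 was lower with ATRA in EVI1 cells (-0.90, adjusted p = 0.0251), and IER5L kept its call for EVI1 under ATRA (0.88, adjusted p = 0.0359).

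**Figure D4:**
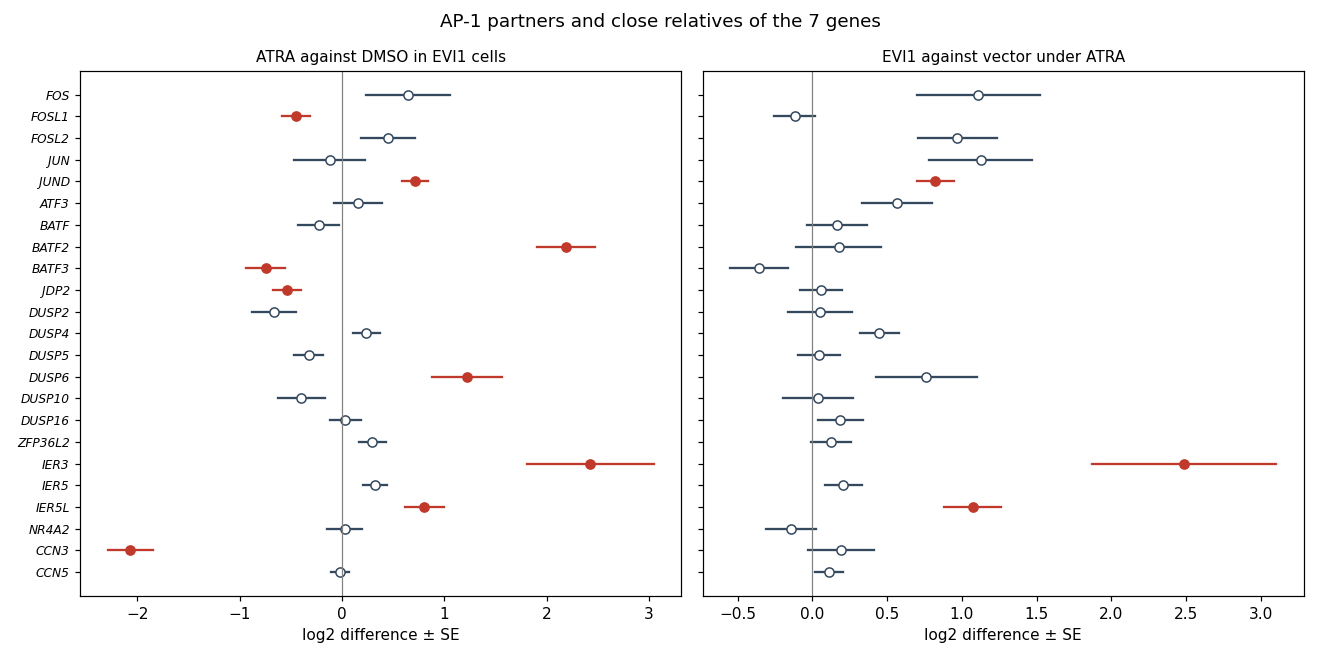
Log2 differences with SE for 10 AP-1 partners and 13 relatives of the 7 genes, for ATRA in EVI1 cells and for EVI1 under ATRA; filled red points passed the test. JUND, IER3 and IER5L passed in both panels, with 0.82, 2.49 and 1.07 for EVI1 under ATRA.

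Other early response genes were a list of 26, with 21 tested. In vector cells ATRA raised 1, CEBPB (1.55), and lowered 2, KLF4 (-1.54) and MYC (-0.86), where 3.52% of all genes were called. In EVI1 cells it raised 9 and lowered 3, 12 of 21 against 15.1% of all genes, among them TRIB1 (2.43), EGR1 (2.39), MAFF (2.26) and CEBPB (1.94). Under ATRA, EVI1 cells had 5 higher and 1 lower, 6 of 21 against 5.61%, with EGR1 (2.88), MAFF (2.04) and GADD45A (0.78) higher and MYC lower (-0.86). EGR3, which the counts of both comparisons include among the higher genes, read 6.67, 8.45 and 10.79 in EVI1 cells with ATRA. On the 6 arrays of vector cells it read 3.69 to 4.42, under the limit for testing and near the lower quartiles. It met that limit through arrays of EVI1 cells alone, so it is given with no size and no test. The shares set beside these counts do not allow for that. Under DMSO none of the 21 passed, against 1.21% of all genes. With the replicate block, 5 rose and 3 fell with ATRA in vector cells, against 20% of all genes, and 9 rose and 4 fell with ATRA in EVI1 cells, against 35.7%. With it 3 were higher in EVI1 cells under DMSO, against 7.19%, and 11 were higher and 1 lower under ATRA, against 25.3%. Without the third array of EVI1 cells with ATRA, 3 rose and 2 fell with ATRA in EVI1 cells, and 1 was higher and 1 lower for EVI1 under ATRA. The differences for EVI1 under ATRA were then 2.29 for EGR1 (adjusted p = 0.0607) and 1.75 for MAFF (adjusted p = 0.130), no longer called. GADD45A (0.64) and MYC (-0.61) still were.

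Upstream kinases and transcription factors, 20 tested of 25, gave 0 calls in vector cells with ATRA, against 3.52% of all genes. In EVI1 cells with ATRA they gave 2, against 15.1%, with RPS6KA1 higher (0.99) and MEF2D lower (-0.33). The same shares apply to the ATRA calls of the lists that follow. Of 13 tested targets and partners of ZFP36, of 18 listed, VEGFA was lower with ATRA in vector cells (-0.86) and in EVI1 cells (-0.93). In EVI1 cells IL1B (1.29), a cytokine transcript that ZFP36 binds, and DCP2 (0.58) were higher. The 11 tested genes of the YAP pathway and of CCN1 receptors, of 14 listed, included ITGAM, the CD11b integrin chain of maturing myeloid cells, which ATRA raised by 2.61 in vector cells and 2.80 in EVI1 cells. ITGA6 (2.31) and ITGB5 (0.66) rose in EVI1 cells. For EVI1, no gene of these lists and none of the 3 tested partners of NR4A1 passed under DMSO or under ATRA. The shares of all genes were 1.21% under DMSO and 5.61% under ATRA. Averaged over both agents, 2 upstream genes, 3 ZFP36 targets and partners and 1 gene of the YAP and CCN1 receptor list were higher in EVI1 cells. In that comparison 0 NR4A1 partners passed, and the share of all genes was 9.69%. None of the partners passed for ATRA. With the replicate block, EVI1 cells under ATRA had more of 4 upstream genes, 6 ZFP36 targets and partners, 3 genes of the YAP and CCN1 receptor list and 2 NR4A1 partners, with 0 lower in each list, against 25.3% of all genes. For ATRA in vector cells the block called 2 upstream genes higher and 3 lower, 3 ZFP36 targets and partners higher and 1 lower, 5 genes of the YAP and CCN1 receptor list higher and 1 lower, and of the NR4A1 partners RXRA lower (-0.37), against 20%. For ATRA in EVI1 cells it called 4 upstream genes higher and 3 lower, 3 ZFP36 targets and partners higher and 2 lower, 4 of the YAP and CCN1 receptor list higher and 1 lower, and RXRA lower (-0.32), against 35.7%. For EVI1 under DMSO it called 2 upstream genes, 1 ZFP36 target or partner and 1 NR4A1 partner higher, against 7.19%. Without the third array of EVI1 cells with ATRA, MEF2D, IL1B (1.08, adjusted p = 0.0719) and DCP2 (0.51, adjusted p = 0.0594) were no longer called for ATRA in EVI1 cells, and ITGAM, ITGA6, ITGB5, RPS6KA1 and VEGFA still were.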

How the data were processed

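Levels were read from the deposited table of log2 values, which the authors made by RMA (background correction, normalization between arrays, 1 summary per probe set). The submitters' processing notes name Affymetrix Expression Console 1.3; settings are not given in the sources used here. The table holds 54675 probe sets on 12 arrays of 4 groups with 3 replicates each, described as biological in the series text. Probe sets named by 1 gene symbol in the array annotation (41097) stand for 19775 genes, and the probe set with the highest mean represents a gene. Genes had to reach a log2 signal of 5 on at least 3 arrays, which kept 14080.

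A limma model (version 3.58.1, R 4.3.3) with 1 mean per group used the 12 arrays together and left 8 residual degrees of freedom; eBayes moderated the variances. Benjamini-Hochberg adjustment covered the 14080 genes of each comparison. A gene is called at an adjusted p under 0.05, and the number of arrays limits the precision. The scripts were tested on simulated data. Replicate numbers pair the samples. Same-numbered arrays of different groups deviated together in all 18 pairs (r from 0.408 to 0.704), and each of the 12 arrays correlated best with its own number. A fit with the number as a block is therefore given where it changes a call of the 7 genes. For the other gene lists it is given where it changes a count in the simple comparisons, cell type markers apart. All 7 genes are named; of the other lists the genes past the test are named, up to 5 per comparison by size. The genes, lists, tests and comparisons were chosen with earlier results of these data known. The alternatives were the block, each array or number left out, other signal limits, the mean of all probe sets, quantile normalization, a trended variance and fits of only the groups compared.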

Additional observations from a re-analysis of the deposited data

Results flagged for a closer look

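For 2 of the 7 genes, ATRA moved every replicate number one way in vector cells and the other way in EVI1 cells, as for 1.75% of all tested genes. JUNB was lower with ATRA at all 3 numbers in vector cells (-0.50, -0.07 and -0.09) and higher at all 3 in EVI1 cells (0.05, 0.56 and 0.57), a difference of 0.61 between the 2 effects. IER2 was lower by -0.05, -0.06 and -0.10 in vector cells and higher by 0.14, 0.01 and 0.25 in EVI1 cells, a difference of 0.20. The IER2 difference in EVI1 cells without the third ATRA array was -0.0033. The difference itself, tested as the interaction in limma, did not pass for either gene (adjusted p = 0.998).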

How the results depend on the processing

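Over the 7 comparisons and 7 genes, 1036 alternative values were computed; 960 kept direction and side of the threshold, 36 lost a call, 12 gained one and 28 changed sign. With the replicate block 1 gene was called for ATRA in vector cells and 3 for EVI1 under ATRA. Fits of only the groups compared called 1 gene for ATRA in vector cells and 0 for ATRA in EVI1 cells. A limit of 6 called 2 for EVI1 under ATRA. The mean of all probe sets called 1 gene for the averaged ATRA effect and gave NR4A1 0.012 for EVI1 under DMSO. No limit and quantile normalization each called 1 gene for the averaged EVI1 effect, and a trended variance called 2 for the replicate number. Counts for the replicate number, here and for left-out arrays, can include CCN1, which met the limit only through number 1. Leaving out arrays or numbers gave 0 to 1 called genes for ATRA in vector cells, 0 to 2 for ATRA in EVI1 cells and for the averaged ATRA effect, 0 to 3 for EVI1 under ATRA and for the averaged EVI1 effect, and 1 to 3 for the replicate number. The ZFP36 call for EVI1 under ATRA held without any single array (adjusted p up to 0.0494) and was lost without number 2 (1.27, adjusted p = 0.162) or number 3 (0.83, 0.0619). Its call for ATRA in EVI1 cells was lost without the first or the second EVI1 DMSO array (adjusted p up to 0.0594), without number 1 (0.95, 0.0621) or 2 (0.985, 0.160), and in the fit of only those groups (0.92, 0.0804). Left-out values that changed sign ranged from -0.34 to 0.025 for NR4A1 and from -0.14 to 0.082 for CCN1 (ATRA in vector cells), from -0.0033 to 0.22 for IER2 (ATRA in EVI1 cells), from -0.025 to 0.27 for JUNB and from -0.13 to 0.10 for NR4A1 (EVI1 under DMSO), and from -0.028 to 0.14 for NR4A1 and from -0.087 to 0.13 for CCN1 (EVI1 under ATRA). For the interaction they ranged from -0.14 to 0.65 for DUSP1 and from -0.075 to 0.25 for NR4A1. For the averaged ATRA effect they ranged from -0.052 to 0.089 for FOSB, from -0.0225 to 0.24 for JUNB and from -0.037 to 0.076 for IER2, and for the averaged EVI1 effect from -0.011 to 0.14 for FOSB and from -0.024 to 0.075 for NR4A1. The cause was not tested. With the replicate block the number of all genes called rose from 496 to 2818 (ATRA in vector cells), 2127 to 5023 (ATRA in EVI1 cells), 171 to 1013 (EVI1 under DMSO), 790 to 3559 (EVI1 under ATRA), 3158 to 5723 (averaged ATRA) and 1365 to 4033 (averaged EVI1). Fits of only the groups compared called 735, 92 and 269 genes for ATRA in EVI1 cells, EVI1 under DMSO and EVI1 under ATRA. Leaving out 1 array gave 71 to 632 genes for ATRA in vector cells, 897 to 3224 for ATRA in EVI1 cells, 77 to 190 for EVI1 under DMSO, 263 to 1962 for EVI1 under ATRA and 869 to 2100 for averaged EVI1, and fits without number 2 called the fewest, from 0 for ATRA in vector cells to 310 for averaged ATRA. CCN1 and FOSB lie near the signal limit of 5, which limits what can be read from them. Leaving out the third EVI1 ATRA array from the other gene lists was added after seeing the data.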

Other observations

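The 5 genes whose deviations from the group means were most like those of the 7 genes, by mean r over 12 arrays, were KLHL15 (0.665), GCH1 (0.660), MIDN (0.658), TNFAIP2 (0.654) and ZNF674-AS1 (0.650). GCH1, the first enzyme of tetrahydrobiopterin synthesis, and TNFAIP2 were also among the genes most like IER2 and ZFP36 by level.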
